A study of Mus musculus with 2 samples.

Results

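The proneural bHLH factors of the embryonic mouse eye were followed here as 6 genes, *Atoh7*, *Neurod1*, *Neurod4*, *Neurog2*, *Olig2* and *Bhlhe22*, taken by their symbols from 31053 genes in the count tables. The measurement was single-cell RNA-seq of whole eyecups (retina with lens and blood) at E13.5, with 1 library per genotype. The control library came from Six3+/-;Six6+/- eyecups, and the DKO library from Six3F/F;Six6-/-;a-Cre eyecups. Control cells thus lacked 1 copy each of *Six3* and *Six6*. The DKO embryo lacked *Six6* in all its cells, but lost *Six3* only where the alpha-Cre transgene is active, at the retinal periphery, which makes its eyecups a mosaic for *Six3*. Eyecups of 1 embryo were used per genotype, so no spread between animals was measured, no test between genotypes was made, and each interval below is a 95% interval for counting error alone.

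Proneural basic helix-loop-helix (bHLH) proteins pair with ubiquitous E proteins, bind short DNA motifs called E-boxes (CANNTG), and drive dividing progenitors toward neuronal fates. ID proteins hold E proteins away from them, and HES and HEY repressors, switched on by Notch signalling, keep their genes low in progenitors that go on dividing. In the retina *Atoh7* is required to make ganglion cells. *Neurod1* acts in photoreceptor and amacrine cells, *Neurod4* in amacrine, bipolar and photoreceptor development, and *Neurog2* is a neurogenic factor used in the retina and widely in the forebrain. *Olig2* marks progenitors close to their last division, and *Bhlhe22* is a repressor used in amacrine and bipolar subtypes.

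On mm10, *Atoh7* (ENSMUSG00000036816) lies on chromosome 10 from 63099651 to 63101279 on the plus strand, and *Neurod4* (ENSMUSG00000048015) on the same chromosome from 130268152 to 130280240 on the minus strand. *Neurod1* (ENSMUSG00000034701) is at 79452521 to 79456751 of chromosome 2, minus strand. *Neurog2* (ENSMUSG00000027967) and *Bhlhe22* (ENSMUSG00000025128) are on the plus strand of chromosome 3, at 127633135 to 127635631 and 18054174 to 18057517. *Olig2* (ENSMUSG00000039830) is at 91225457 to 91228677 of chromosome 16, plus strand. Each has at most 2 annotated exons, and UMIs of a whole gene were counted. *Neurod1* overlaps *Cerkl* on its own strand and *Gm26755* on the opposite strand, which together had 340 UMIs, and the other 5 members overlap no annotated gene.

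The sequence just before the start site is shown for *Atoh7* and *Neurod1*, the members with the highest levels, because an E-box is the motif that bHLH dimers bind. It comes from RefSeq on GRCm38.p6, where 5 of the 6 members had an entry. For *Atoh7* the 116 bases are chr10:63099535-63099650 on the plus strand, and for *Neurod1* the 135 bases are chr2:79456752-79456886 on the minus strand, both written 5′ to 3′ up to the base before the gene, with each CANNTG in capitals.
Atoh7: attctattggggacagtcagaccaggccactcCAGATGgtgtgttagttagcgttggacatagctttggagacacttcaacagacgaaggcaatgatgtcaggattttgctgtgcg
Neurod1: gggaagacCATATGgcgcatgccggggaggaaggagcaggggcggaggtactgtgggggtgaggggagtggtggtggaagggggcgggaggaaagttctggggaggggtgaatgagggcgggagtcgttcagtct
Each window held 1 E-box, and the motif reads alike on either strand. Of 32851 RefSeq promoters, 40.7% held at least 1 E-box in a window of the *Atoh7* length and 45.6% in a window of the *Neurod1* length, so a match at this length is common. No CANNTG was found in the windows of *Neurod4* (250 and 148 bases), *Neurog2* (249 bases) and *Olig2* (157 bases). In windows of these lengths 66.2%, 48.8%, 66.1% and 50.8% of the RefSeq promoters held at least 1, so its absence is common too.

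After filtering, 9822 control and 12146 DKO cells remained, with medians of 7620 and 5879 UMIs (unique molecular identifiers, each counting 1 captured transcript) per cell. The libraries shared 22 cell barcodes. Clusters were formed without the 6 members and named from markers. The neurogenic-like class held 1360 control and 1451 DKO cells, the naïve-like class 3688 and 2655, the ganglion-like class 973 and 2050, the photoreceptor-like class 96 and 116, and the amacrine- or horizontal-like class 112 and 184. A further 848 DKO cells and 0 control cells were Eomes Tbr1 neuron-like, and 1006 DKO and 6 control cells lay in 2 unnamed clusters led by *Fabp7*. In neurogenic-like cells *Six6* was at 202 CPM (UMIs of a gene per 1000000 UMIs of the class) in control and 52.2 CPM in DKO, and *Six3* at 306 and 317 CPM, so the class was not depleted of *Six3* transcript in the DKO library.

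*Atoh7* was by far the most abundant member, and in control cells it ran from 3352 CPM in neurogenic-like cells through 1669 CPM in photoreceptor-like cells to 77.4 CPM in naïve-like cells. Its control levels in ganglion-like cells (496 CPM, 481 to 511) and amacrine- or horizontal-like cells (477 CPM, 426 to 534) did not differ beyond counting error. A 3′ library counts transcripts at their ends, so a CPM does not grow with gene length. How fully each member's transcripts were captured was not measured, so orders between members are orders of counted UMIs. The level of *Neurod1* was highest in photoreceptor-like control cells at 1184 CPM, against 337 CPM in neurogenic-like, 119 CPM in amacrine- or horizontal-like, 83.7 CPM in ganglion-like and 15.4 CPM in naïve-like cells.

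*Neurod4* was concentrated in photoreceptor-like cells, where its control level was 703 CPM. Its next levels, 34.0 CPM (21.3 to 51.4) in amacrine- or horizontal-like and 23.1 CPM (20.2 to 26.2) in neurogenic-like cells, had overlapping intervals. *Neurog2* had its highest control level in neurogenic-like cells at 117 CPM and its lowest among the 5 classes in ganglion-like cells at 6.44 CPM. Between these, its levels of 34.0 CPM (21.3 to 51.4) in amacrine- or horizontal-like, 23.8 CPM (12.3 to 41.6) in photoreceptor-like and 17.0 CPM (15.7 to 18.4) in naïve-like cells differed little: the intervals of the first and the last did not overlap, and that of photoreceptor-like cells overlapped both.

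*Bhlhe22* stood at 212 CPM in neurogenic-like control cells. In ganglion-like, photoreceptor-like and amacrine- or horizontal-like control cells its levels were 53.3, 49.7 and 44.8 CPM, with intervals that all overlapped, and in naïve-like cells 6.34 CPM. *Olig2* was the scarcest member, with 19.8 CPM in neurogenic-like control cells, 11.9 CPM from 6 UMIs in photoreceptor-like cells and at most 3.09 CPM in the other 3 classes. The plot of levels by class shows these orders for both libraries.

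**Figure D1:**
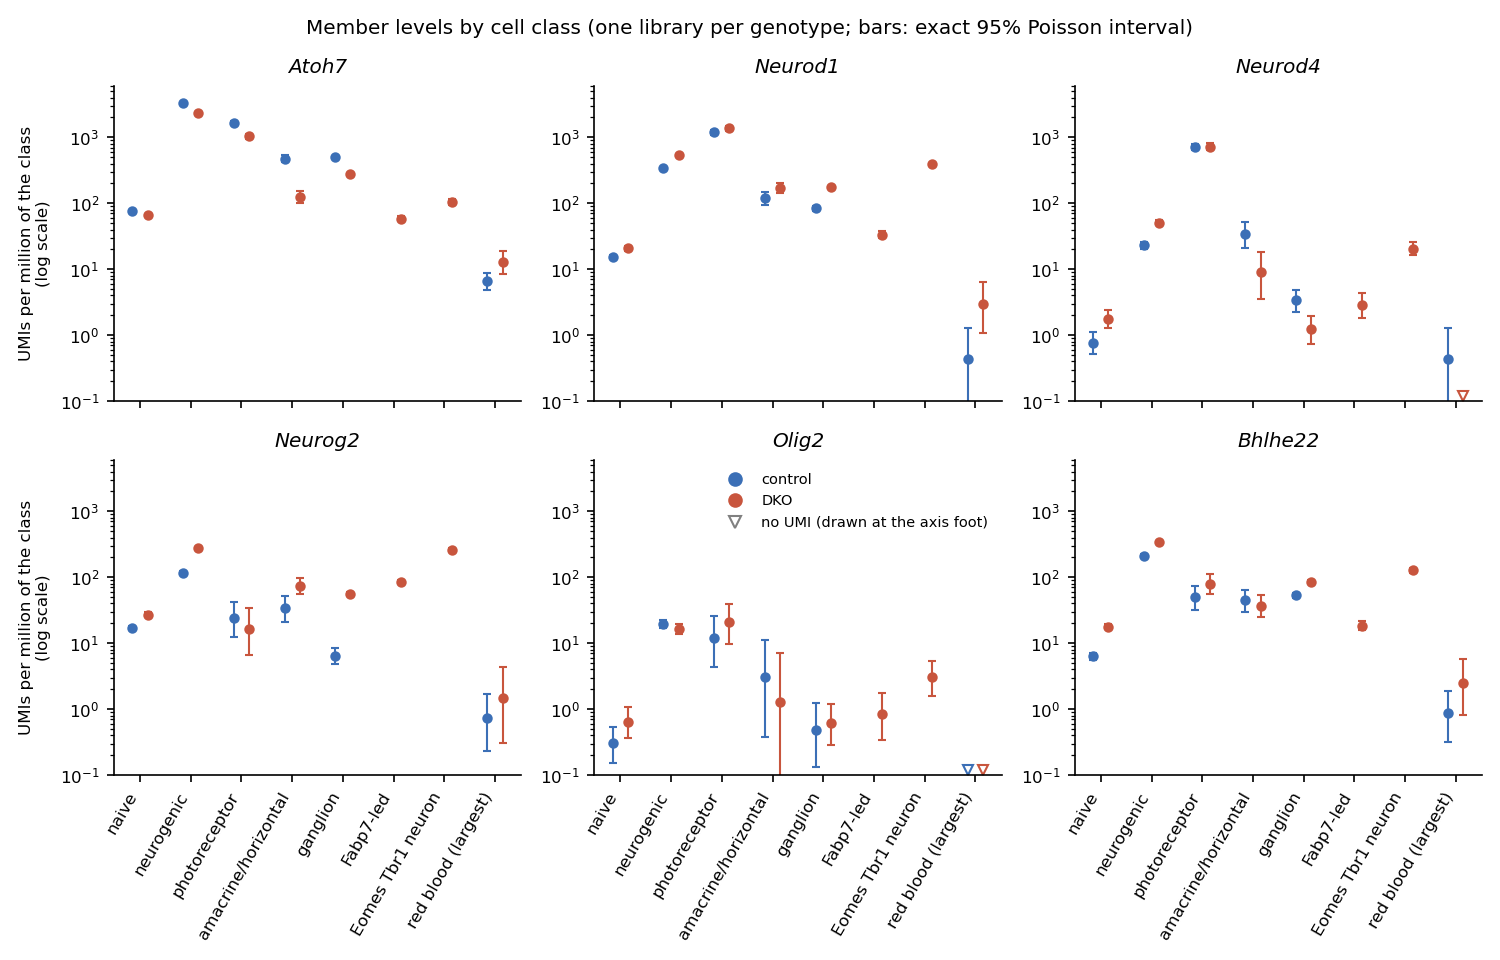
Level of each member in CPM on a log10 axis for each class, the *Fabp7*-led clusters (DKO) and the largest red blood-like cluster, control in blue and DKO in red, with 95% Poisson intervals for counting error and triangles for groups without a UMI. *Atoh7* peaks in neurogenic-like cells at 3352 CPM in control and 2367 CPM in DKO, while *Neurod4* peaks in photoreceptor-like cells at 703 and 723 CPM.

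Red blood-like cells, the largest class that should lack these genes, served as a measure of free RNA. *Atoh7* was at 7.68 CPM in control and 24.9 CPM in DKO red blood-like cells, and the other 5 members were at or below 6.08 CPM. Of these, *Neurod1* was at 0.668 and 6.08 CPM, *Bhlhe22* at 0.891 and 2.77 CPM, and *Neurog2* at 0.891 and 1.94 CPM. *Neurod4* was at 0.334 and 1.11 CPM, so each of these was higher in DKO red blood-like cells, while *Olig2* had no UMI. Lens-like cells held *Atoh7* at 25.8 and 18.7 CPM. Macrophage-like cells, 54 in control and 162 in DKO, held it at 11.6 CPM (3 UMIs) and 90.6 CPM (69.9 to 115) and *Neurod1* at 48.8 CPM in DKO, so the naïve-like DKO levels of 66.1 and 20.9 CPM were not above each such class. DKO macrophage-like cells also held *Neurog2* at 13.9 CPM (6.68 to 25.6) and *Bhlhe22* at 12.5 CPM (5.73 to 23.8). The naïve-like DKO level of *Bhlhe22*, 17.9 CPM, lies inside that interval, and that of *Neurog2*, 27.1 CPM, just above its own. After each cell was thinned at random to 2000 UMIs, so that shares of cells are compared at 1 depth, *Atoh7* had a UMI in 1.41% of control and 2.04% of DKO red blood-like cells. It had one in 6.66% and 5.08% of naïve-like cells (16.1% and 12.6% before thinning), whose median depths before thinning were 8624.5 and 7415 UMIs against 8454 and 6343 UMIs for red blood-like cells. In thinned neurogenic-like cells the share with *Atoh7* was 95.4% in control and 83.3% in DKO.

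In neurogenic-like cells 4 of the 6 members were higher in the DKO library: *Neurog2*, *Neurod4*, *Bhlhe22* and *Neurod1*. *Atoh7*, the most abundant of them, went the other way, though by less than 1.5-fold. Fold changes were called when past 1.5-fold among genes with at least 100 UMIs in the class. Among the 9419 such genes 5.56% were higher in the DKO library and 3.57% were lower, against 4 and 0 of the 6 members. The median log2 ratio (DKO over control) was 0.69 over the members and 0.01 over all these genes.

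*Neurog2* was at 117 CPM in control and 280.1 CPM in DKO neurogenic-like cells, a log2 ratio of 1.26 (1.16 to 1.36). *Neurod4* was at 23.1 and 51.0 CPM, a log2 ratio of 1.15 (0.91 to 1.39). These were 2.40-fold and 2.21-fold differences, the largest of the 6 members in this class. For *Bhlhe22* the levels were 212 and 345 CPM, a log2 ratio of 0.70 (0.62 to 0.78). For *Neurod1* they were 337 and 538 CPM, a log2 ratio of 0.67 (0.61 to 0.74). Both lay just past the 1.5-fold limit.

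The level of *Atoh7* was 3352 CPM in control and 2367 CPM in DKO neurogenic-like cells, a log2 ratio of -0.50 (-0.53 to -0.48). *Olig2* was at 19.8 and 16.3 CPM, a log2 ratio of -0.28 whose interval (-0.61 to 0.05) includes 0. Neither was past 1.5-fold, and the *Olig2* ratio turned to 0.16 with merged libraries and to 0.27 in cells without Eomes Tbr1 neuron markers. Over 14 other settings of the clustering and scaling the *Atoh7* ratio stayed negative, from -0.71 to -0.083, and the weakest value came from libraries merged without integration.

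**Figure D2:**
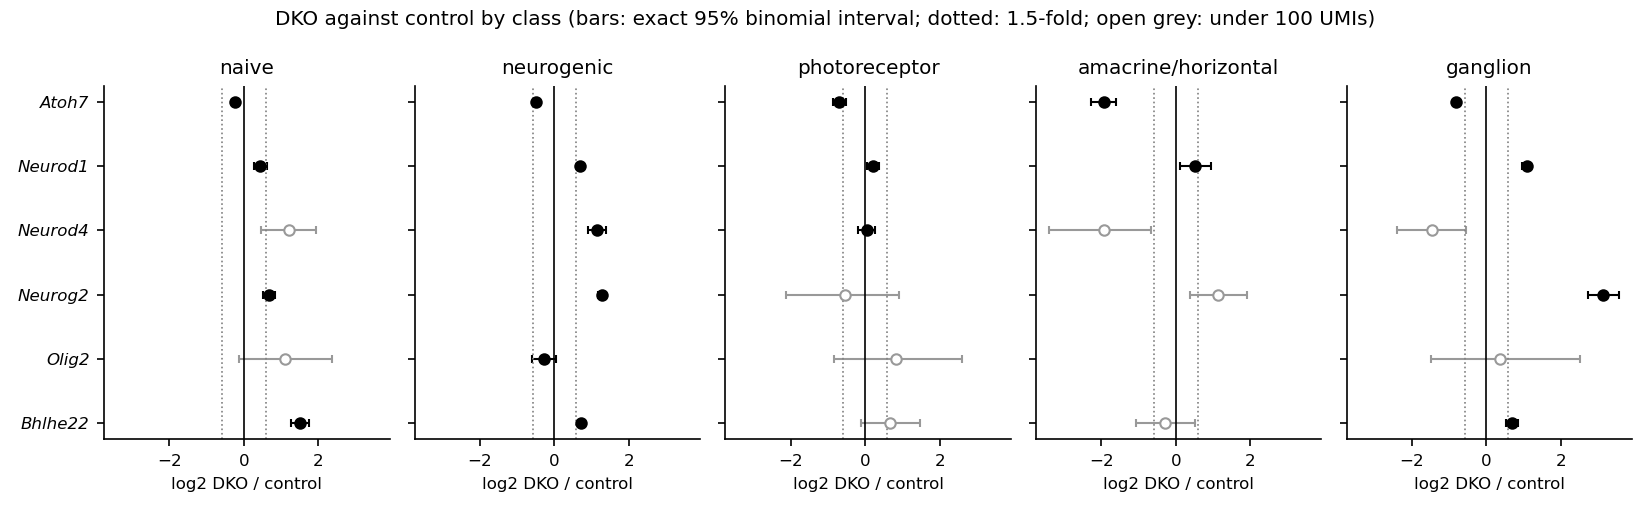
Log2 ratio of DKO over control CPM for each member in each class, with 95% intervals for counting error dotted lines at 1.5-fold, open grey points for members with under 100 UMIs, and no point where both libraries had at most 3 UMIs (*Olig2* in amacrine- or horizontal-like cells). *Atoh7* lies below 0 in all 5 classes as drawn here, from -0.23 in naïve-like cells (0.30 with merged libraries) to -1.93 in amacrine- or horizontal-like cells, whereas *Neurog2* lies at 0.67, 1.26 and 3.13 in the naïve-like, neurogenic-like and ganglion-like classes.

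The neurogenic-like class was made of 2 clusters. Cluster 3, with 843 control and 1070 DKO cells, was mostly in G1 by its transcripts (63.2% and 74.7% of thinned cells), and cluster 8, with 517 and 381 cells, had 0 thinned cells in G1 (up to 0.711% and 0.984% by the intervals). *Neurog2* was at 53.6 and 208 CPM in cluster 3 (log2 ratio 1.95) and at 189 and 421 CPM in cluster 8 (log2 ratio 1.16), higher in the DKO library in each. *Neurod4* was also higher in each, with log2 ratios of 1.04 and 1.03.

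For *Neurod1* and *Bhlhe22* the clusters differed. In cluster 3 *Neurod1* was at 265 and 541 CPM, a log2 ratio of 1.03 (0.94 to 1.12), and in cluster 8 at 418 and 530.1 CPM, a log2 ratio of 0.34 (0.24 to 0.44). *Bhlhe22* had log2 ratios of 1.08 (0.97 to 1.19) in cluster 3 and 0.21 (0.07 to 0.34) in cluster 8. The intervals of the 2 clusters did not overlap for either gene. Both genes were past 1.5-fold in the largely G1 cluster and neither was in the cycling cluster. The share of all genes past 1.5-fold was not computed for single clusters. *Olig2*, with 23 and 39 UMIs in cluster 3, had a log2 ratio of 0.77 there (-0.0045 to 1.59) and of -0.16 in cluster 8. *Atoh7* was at 2746 and 1891 CPM in cluster 3 and at 4039 and 3290 CPM in cluster 8, with log2 ratios of -0.54 and -0.30.

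Markers of the Eomes Tbr1 neurons (*Eomes*, *Lhx9*, *Tbr1*, *Rspo3*, *Uncx*, *Tac1*) moved with these differences. All 6 were detected in neurogenic-like cells of either library, with a summed level of 21.5 CPM in control and 201 CPM in DKO, and 10.7% and 39.7% of cells had at least 1 of their UMIs. In the neurogenic-like cells without any such UMI, *Neurog2*, *Neurod4* and *Neurod1* had log2 ratios of 1.32, 0.93 and 0.59, with *Neurod1* just past 1.5-fold. *Bhlhe22* had 0.51 and *Atoh7* -0.27 in those cells, neither past 1.5-fold.

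Naïve-like cells are dividing progenitors that have not yet become neurogenic, and the members were scarce in them. Here 4 members had at least 100 UMIs, of which 2 were higher and 0 lower in the DKO library, against 4.64% of 11540 genes higher and 2.31% lower. *Bhlhe22* was at 6.34 CPM in control and 17.9 CPM in DKO cells (log2 ratio 1.49, 1.26 to 1.73), and *Neurog2* at 17.0 and 27.1 CPM, a log2 ratio of 0.67 (0.51 to 0.83). Both were also higher in DKO red blood-like cells, at 0.891 and 2.77 CPM for *Bhlhe22* and 0.891 and 1.94 CPM for *Neurog2*. The part of free RNA in the naïve-like ratios was not tested. *Neurod1* had a log2 ratio of 0.44 and *Atoh7* of -0.23, neither past 1.5-fold. *Neurod4* (28 and 41 UMIs) and *Olig2* (11 and 15 UMIs) were too scarce to be called. Among the 668 naïve-like DKO cells whose subclusters held less than 50% of the *Six3* level of control cells, the log2 ratio was 1.46 for *Bhlhe22*, 0.79 for *Neurog2* and -0.68 for *Atoh7*. Eomes Tbr1 neuron markers summed to 3.32 CPM in control and 44.2 CPM in DKO naïve-like cells, and without the cells that held them *Bhlhe22* had a log2 ratio of 1.502 and *Neurog2* of 0.62. When no gene was left out of the clustering features the *Neurog2* log2 ratio in naïve-like cells was 0.00, so that call depends on how the class was drawn. With merged libraries it was 0.49 and the *Atoh7* log2 ratio turned to 0.30. On the log2 scale of the mean per 10000 plus 1, which understates the ratios of scarce genes, *Bhlhe22* had 0.13 and *Neurog2* 0.11, and neither was past 1.5-fold.

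Ganglion cells are the first neurons of the retina. In the class named ganglion-like from their markers, 3 of the 4 members measured were higher in the DKO library while *Atoh7* was lower. The background was 7.23% of 9874 genes higher and 3.12% lower, and the median log2 ratio was 0.89 over the 4 members against 0.03 over all genes. *Neurog2* was at 6.44 CPM in control and 56.3 CPM in DKO, a log2 ratio of 3.13 (2.73 to 3.56), and had a UMI in 0.517% and 10.1% of thinned cells (4.42% and 22.8% before thinning). *Neurod1* was at 83.7 and 177 CPM, a log2 ratio of 1.08 (0.96 to 1.20). *Bhlhe22* was at 53.3 and 86.0 CPM, a log2 ratio of 0.69 (0.53 to 0.85). *Neurod4* had 28 and 18 UMIs and *Olig2* 4 and 9, too few to be called. The class was not made up alike in the 2 libraries. In thinned cells without *Atoh7*, the ganglion marker *Isl1* was found in 81.4% of control and 69.7% of DKO cells. In those with *Atoh7* it was found in 84.6% and 49.8%. For the marker *Pou4f2* these shares were 29.5% and 18.0%, and 47.4% and 22.6%. The 10 ganglion markers together went the other way, at 15514 and 17449 CPM.

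*Atoh7* was at 496 CPM in control and 282 CPM in DKO ganglion-like cells, a log2 ratio of -0.81 (-0.88 to -0.75). The Eomes Tbr1 neuron markers summed to 100.2 CPM in control, where *Eomes* itself was at 0, and to 454 CPM in DKO, with at least 1 UMI in 43.3% and 63.4% of cells. Cells without such a UMI, 552 in control and 751 in DKO, were picked on unthinned counts, so deeper cells were more readily left out. In these cells the log2 ratio was 1.37 for *Neurog2* and -1.49 for *Atoh7*. There *Neurod1* was no longer past 1.5-fold at 0.05 and *Bhlhe22* turned to -0.72. Those 2 members were also not past 1.5-fold with finer clusters or with libraries merged without integration, whereas *Neurog2* and *Atoh7* were.

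By cluster, *Neurog2* was higher in the DKO library in both ganglion-like clusters, with log2 ratios of 3.59 in cluster 4 and 2.33 in the later, axon-gene-rich cluster 6. *Neurod1* had 1.48 in cluster 4 and 0.31 in cluster 6. *Atoh7*, which falls as ganglion cells mature, was at 817 and 568 CPM in cluster 4 and at 64.8 and 26.3 CPM in cluster 6, with log2 ratios of -0.52 and -1.30.

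In photoreceptor-like cells 1 of 3 measured members, *Atoh7*, was lower and 0 were higher, where 2.76% of 1741 genes were lower and 3.56% higher. *Atoh7* was at 1669 CPM in control and 1035 CPM in DKO, a log2 ratio of -0.69 (-0.86 to -0.52). The members most typical of this class differed little: *Neurod1* was at 1184 and 1371 CPM (log2 ratio 0.21, 0.04 to 0.38) and *Neurod4* at 703 and 723 CPM (log2 ratio 0.04, -0.19 to 0.26). The other 3 members had under 100 UMIs and intervals that include 0, with *Neurog2* at 23.8 and 16.3 CPM, *Bhlhe22* at 49.7 and 79.3 CPM and *Olig2* at 11.9 and 21.0 CPM. A change of *Neurod4* past 1.5-fold lies outside that interval, as far as counting error goes. Eomes Tbr1 neuron markers were at 109 and 222 CPM in this class, with *Eomes*, *Tbr1* and *Rspo3* at 0 in control and *Tbr1* at 0 in DKO, and without the cells holding them the *Atoh7* log2 ratio was -0.62.

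In amacrine- or horizontal-like cells 2 members had at least 100 UMIs, and *Atoh7* was at 477 CPM in control and 125 CPM in DKO, a log2 ratio of -1.93 (-2.27 to -1.60). This was 3.81-fold lower, and the background was 3.98% of 2590 genes lower and 3.75% higher, against 1 and 0 of the 2 members. *Neurod1* was at 119 and 171 CPM, a log2 ratio of 0.52 (0.11 to 0.95). Below 100 UMIs, *Neurog2* was at 34.0 and 74.1 CPM (22 and 58 UMIs, log2 ratio 1.12, 0.39 to 1.90) and *Neurod4* at 34.0 and 8.94 CPM (22 and 7 UMIs, log2 ratio -1.93). *Bhlhe22* had 29 UMIs in each library, and *Olig2* 2 and 1. The marker sum of Eomes Tbr1 neurons was 35.5 and 115 CPM in this class, with *Lhx9*, *Tbr1* and *Rspo3* at 0 in control and *Tbr1* at 0 in DKO, and the *Atoh7* log2 ratio was -2.00 in cells without it.

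The 848 Eomes Tbr1 neuron-like cells had no control counterpart at the main setting. With no gene left out of the clustering features the class held 87 control and 1317 DKO cells. It held 15 and 2188 with merged libraries, and 1 and 945 at resolution 1. All 6 of their markers passed 1.5-fold over the other cells, and *Rspo3*, *Eomes*, *Lhx9* and *Tbr1* led the cluster. Among the members *Neurod1* was highest at 394 CPM (375 to 414), followed by *Neurog2* at 259 CPM (244 to 276), *Bhlhe22* at 127 CPM (116 to 139) and *Atoh7* at 105 CPM (95.6 to 116). *Neurod4* was at 20.6 CPM and *Olig2* at 3.05 CPM. *Atoh7* was thus the highest member in each of the 5 control classes above, and at the main setting stood behind *Neurod1*, *Neurog2* and *Bhlhe22* here. That order depended on how the class was drawn. With merged libraries *Atoh7* was at 622 CPM, above the highest level of *Neurod1* (492 CPM), *Neurog2* (261 CPM) or *Bhlhe22* (259 CPM) under any setting. A level of *Atoh7* below that of *Neurod1* was not limited to these cells. In DKO photoreceptor-like cells *Atoh7* also stood behind *Neurod1*, at 1035 against 1371 CPM. In DKO amacrine- or horizontal-like cells it did so at 125 (102 to 152) against 171 CPM (143 to 203), with overlapping intervals.

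Against control ganglion-like cells, the Eomes Tbr1 neuron-like cells had 5.33 more on the log2 scale for *Neurog2* and 2.24 more for *Neurod1*, while *Atoh7* had a log2 ratio of -2.23. These compare different cell classes of the libraries, not a genotype within a class. The *Atoh7* level depended on how the class was drawn, from 83.2 CPM at the coarser clustering to 622 CPM where the libraries were merged without integration and the class grew to 2188 DKO cells, whereas *Neurog2* stayed between 174 and 261 CPM.

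In the DKO cells of the unnamed clusters led by *Fabp7*, *Neurog2* was the highest member at 83.9 CPM (77.8 to 90.3), ahead of *Atoh7* at 58.5 CPM (53.4 to 63.9), *Neurod1* at 33.4 CPM and *Bhlhe22* at 18.4 CPM, when both clusters were summed. The clusters differed, with *Atoh7* at 62.1 CPM and *Neurog2* at 48.6 CPM in cluster 12 (511 DKO cells), and 52.2 and 146 CPM in cluster 13 (495 DKO cells). *Neurog2* had a UMI in 13.0% of these thinned cells, compared with 4.82% of naïve-like DKO cells and 3.34% of naïve-like control cells. *Six3* was at 89.0 CPM and *Six6* at 30.2 CPM in them, against 270 and 49.5 CPM in naïve-like DKO cells. The 6 control cells in these clusters were too few to compare.

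The make-up of the members' transcripts shifted away from *Atoh7* in the DKO library. *Atoh7* held 82.5% (82.2 to 82.9) of all member UMIs in control and 65.8% (65.3 to 66.4) in DKO neurogenic-like cells, although the summed level of the 6 members was similar, 4060 and 3597 CPM. In ganglion-like cells its share was 77.1% and 46.8%, and in naïve-like cells 66.1% and 49.2%. In photoreceptor-like cells *Atoh7* went from 45.8% to 31.9% of the member UMIs and *Neurod1* from 32.5% to 42.2%. *Neurog2* held 2.88% and 7.79% in neurogenic-like cells and 1.001% and 9.33% in ganglion-like cells.

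**Figure D3:**
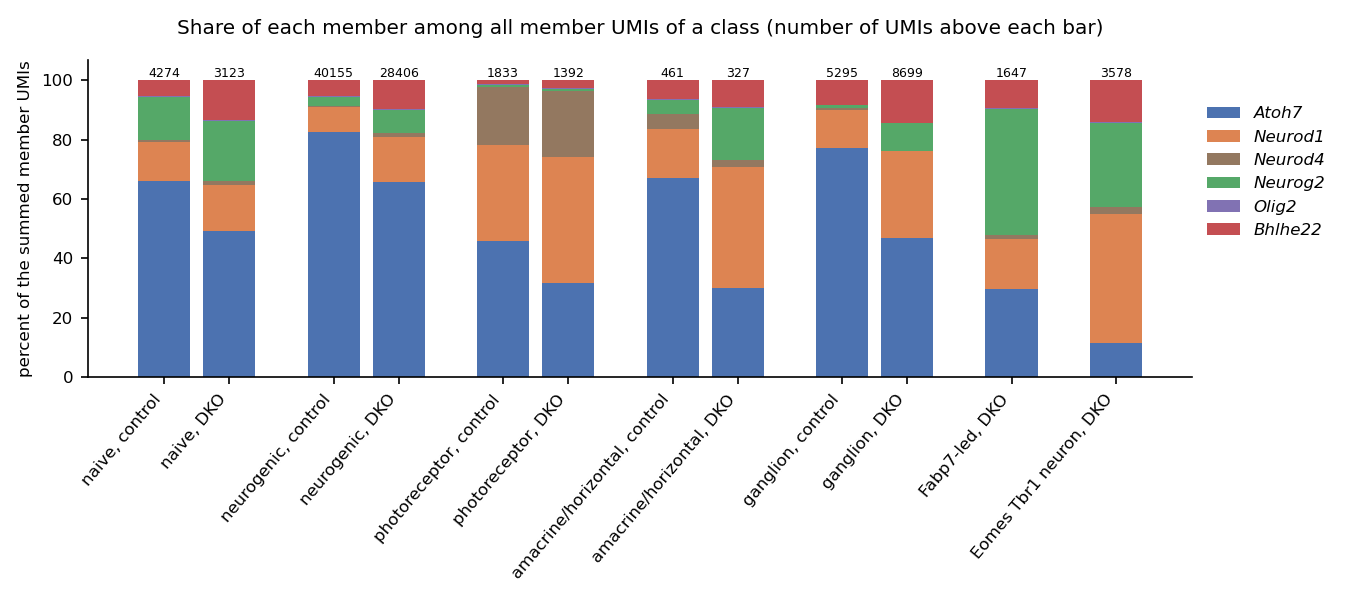
Stacked bars give the percent of member UMIs that each of the 6 genes holds in a class, for control and DKO (*Fabp7*-led and Eomes Tbr1 neuron-like cells for DKO only), with the number of UMIs above each bar. The *Atoh7* part is smaller in DKO than in control in each class with both libraries, as in neurogenic-like cells at 65.8% against 82.5%.

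Per cell, the lower *Atoh7* level of DKO neurogenic-like cells came with more cells without a UMI and fewer cells with many. At 2000 UMIs per cell, 0 UMIs of *Atoh7* were found in 4.63% of the 1340 control cells (3.57 to 5.89) and 16.7% of the 1404 DKO cells (14.8 to 18.7). At the other end, 25.4% and 15.6% had at least 10. The median was 6 UMIs in control and 3 in DKO. In cluster 3 the share without *Atoh7* was 5.95% and 20.2%, and in the cycling cluster 8 it was 2.51% and 6.97%. Photoreceptor-like cells without *Atoh7* were 22.9% (14.95 to 32.6) of 96 in control and 44.04% (34.5 to 53.9) of 109 in DKO.

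**Figure D4:**
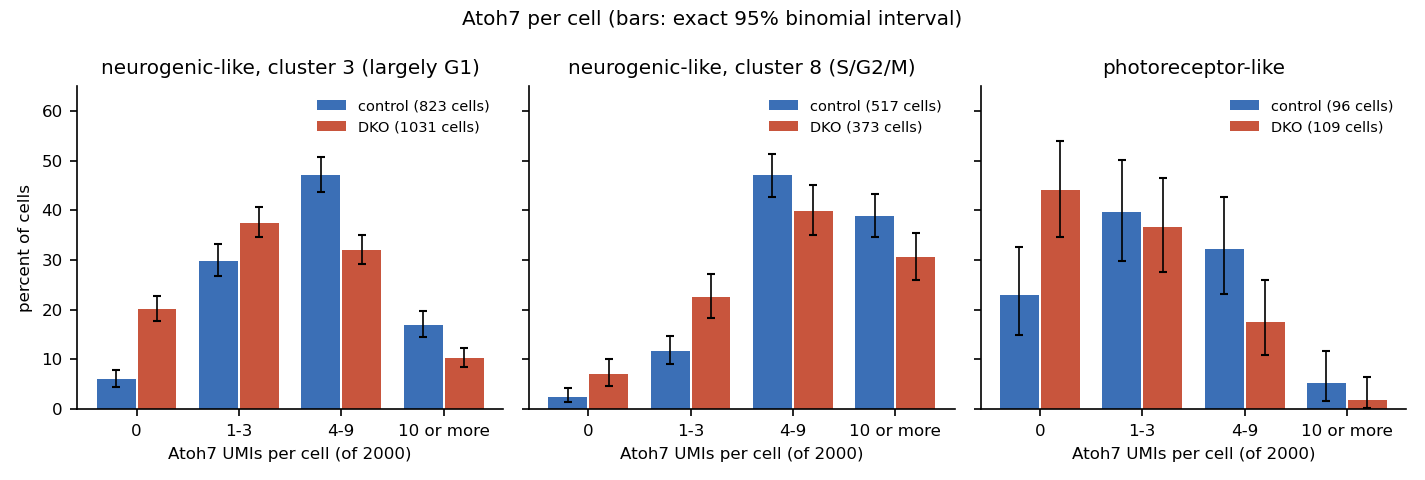
Percent of thinned cells (2000 UMIs each) by number of *Atoh7* UMIs in neurogenic-like clusters 3 and 8 and in photoreceptor-like cells, control against DKO, with 95% binomial intervals for counting error. Cells without a UMI are more frequent in DKO in each panel, as in cluster 3 at 20.2% against 5.95% and in photoreceptor-like cells at 44.04% against 22.9%.

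More members were found together in a DKO cell. In thinned neurogenic-like cells, 56.1% of control and 74.2% of DKO cells had UMIs of at least 2 members, and 335 control and 591 DKO cells (42.1%) of at least 3. Those with at least 1 member were 97.2% and 97.8%. In ganglion-like cells at least 2 members were found in 14.6% and 24.1%.

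Nearly every neurogenic-like control cell with another member also had *Atoh7*: 97.4% of those with *Neurod1*, 98.0% of those with *Neurog2* and 64 of 64 of those with *Neurod4*, where the binomial interval starts at 94.4%. In the DKO library these shares were 81.2%, 80.7% and 74.6%. Over the whole class *Atoh7* was found in 95.4% of control and 83.3% of DKO cells. The shares for *Neurod1* and *Neurog2* thus lay close to that of the class. *Neurod1* was found in 38.1% (35.4 to 40.8) of control cells with *Atoh7* and in 21.0% (11.7 to 33.2, 13 of 62) of those without. In DKO it was found in 55.9% (53.0 to 58.8) of cells with *Atoh7* and in 64.5% (58.0 to 70.7, 151 of 234) of those without. The order between these shares was opposite in the 2 libraries, though in DKO the intervals touch.

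*Neurog2* and *Neurod1* shared cells in both libraries. Among cells with *Neurog2*, 65.7% of control and 70.2% of DKO cells had *Neurod1*, against 32.3% and 51.1% of cells without *Neurog2*. Cells with *Neurod1* had *Neurog2* in 26.4% and 39.9%. *Neurod4* and *Neurog2* were seldom together in control, where 12.5% (5.55 to 23.2) of the 64 cells with *Neurod4* had *Neurog2* against 15.1% of those without, and 41.0% (32.2 to 50.3) of 122 did in DKO against 31.7%. *Bhlhe22* was found in 39.4% (35.1 to 43.8) of control cells with *Neurod1* and 25.8% (22.9 to 28.9) without, and in 50.7% and 36.1% in DKO. Of the few cells with *Olig2*, 39 in control and 45 in DKO, 41.0% and 48.9% had *Neurog2* and 79.5% and 73.3% had *Neurod1*.

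In Eomes Tbr1 neuron-like cells the partners were others. *Atoh7* was found in 13.3% of cells with *Neurod1* and in 10.1% of cells with *Neurog2*, beside 9.14% of the whole class. *Neurod1* was found in 61.9% (56.0 to 67.5) of cells with *Neurog2* and in 41.7% (37.5 to 46.0) of cells without. Of the 75 cells with *Atoh7* in this class 70.7% had *Neurod1*. In photoreceptor-like cells 92.4% of control and 94.8% of DKO cells with *Neurod4* had *Neurod1*. These shares lay close to those of the whole class, 87.5% and 93.6%. *Atoh7* was found in 79.8% of control and 57.8% of DKO cells with *Neurod1*, again close to 77.1% and 56.0% of the class.

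**Figure D5:**
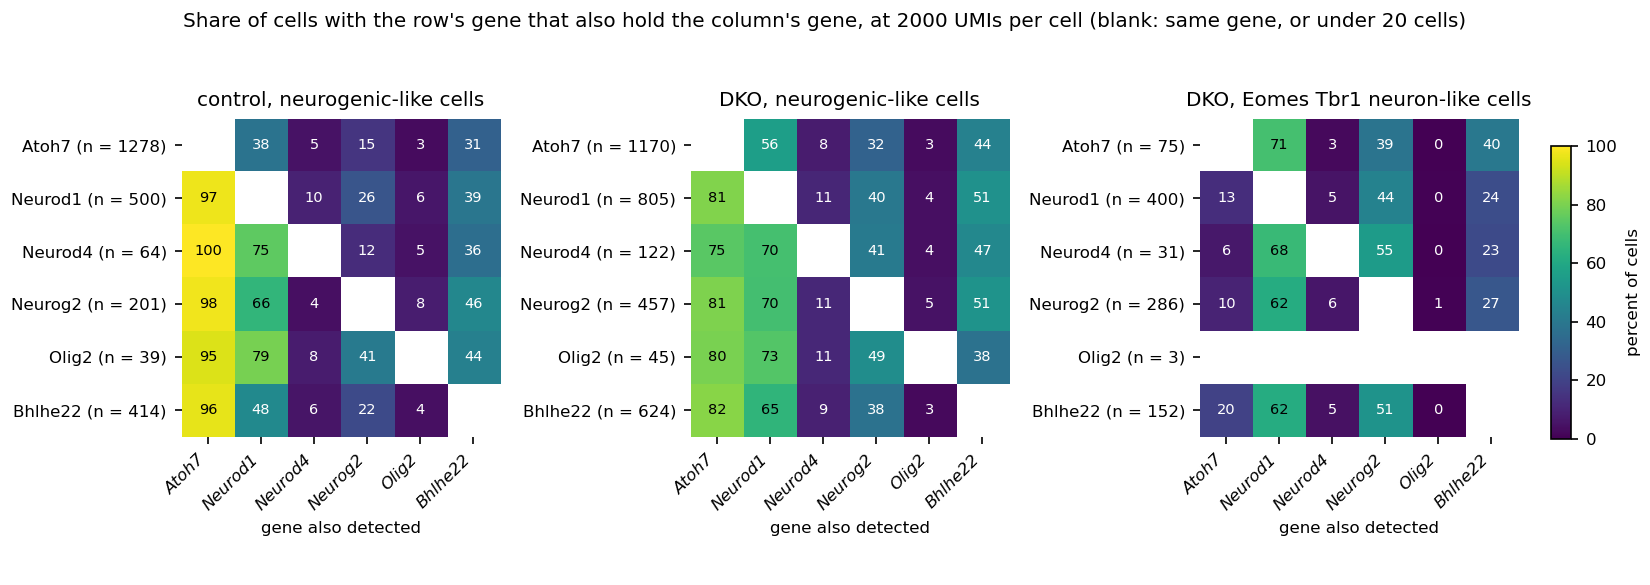
Each square gives the percent of thinned cells with a UMI of the row's gene (n cells) that also have a UMI of the column's gene, in control and DKO neurogenic-like cells and in DKO Eomes Tbr1 neuron-like cells. The *Atoh7* column falls from 94.9% or more in control neurogenic-like cells to between 74.6% and 82.1% in DKO and to at most 19.7% in Eomes Tbr1 neuron-like cells. Over all thinned cells of these groups *Atoh7* was found in 95.4%, 83.3% and 9.14%.

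Cell cycle phase, assigned from transcripts after thinning, moved with the genotype as well. Neurogenic-like cells in G1 were 38.8% in control and 54.8% in DKO, and those in G2 or M 48.4% and 37.9%. *Neurog2* was at 34.6 CPM in G1 and 165 CPM in G2 or M in control, and at 186 and 388 CPM in DKO, so it was higher in G2 or M in each library and higher in DKO in each phase. *Olig2* was almost limited to cycling cells in control, with 0.962 CPM from 1 UMI in G1 and 27.0 CPM in G2 or M, and was at 4.55 and 36.7 CPM in DKO.

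*Atoh7* was at 2665 CPM in G1 and 4096 CPM in G2 or M in control and at 1840 and 3235 CPM in DKO, lower in DKO in either phase. *Neurod4* was at 37.5 CPM in G1 and 25.5 CPM in G2 or M in control, with overlapping intervals, and at 70.1 (57.5 to 84.7) and 44.2 (32.5 to 58.7) CPM in DKO. *Bhlhe22* was at 177 CPM in G1 and 240.0 CPM in G2 or M in control, and at 384 and 316 CPM in DKO, so its order between the phases turned. *Neurod1* was at 247 and 406 CPM in control and at 593 (555 to 633) and 534 (491 to 580) CPM in DKO, where the intervals overlap.

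Ganglion cell factors were found less often in cells with *Neurog2*. In control neurogenic-like cells *Pou4f2*, a POU factor of ganglion cells, was found in 4.48% (2.07 to 8.33) of cells with *Neurog2* and 18.8% (16.6 to 21.2) without, and *Isl1*, its LIM partner, in 9.45% and 30.9%. In DKO the shares were 4.38% and 14.7% for *Pou4f2* and 5.69% and 21.5% for *Isl1*. The Notch ligand gene *Dll1*, by contrast, was found in 27.9% of control cells with *Neurog2* and 16.1% without, and in 19.5% and 11.1% in DKO. In DKO ganglion-like cells *Isl1* was found in 38.5% of cells with *Neurog2* and 66.4% without.

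*Eomes*, the T-box gene of the ectopic neurons, was found in 1.62% (0.98 to 2.52) of DKO neurogenic-like cells with *Atoh7* and in 11.97% (8.10 to 16.8) of those without. In DKO ganglion-like cells these shares were 0.968% and 1.14%, and in Eomes Tbr1 neuron-like cells 25.3% (16.0 to 36.7) and 30.7% (27.4 to 34.1), with overlapping intervals in each. In control neurogenic-like cells it was found in 0 of 1278 cells with *Atoh7*, which the interval allows up to 0.288%. Within the Eomes Tbr1 neuron-like class *Eomes* was found in 41.96% (36.2 to 47.9) of cells with *Neurog2* and 23.9% (20.4 to 27.8) without, and in 36.8% (32.0 to 41.7) of cells with *Neurod1* and 24.0% (19.99 to 28.4) without. *Tbr1*, a T-box gene of later neurons, was found in 24.1% (19.3 to 29.5) of cells with *Neurog2* and 27.7% (23.9 to 31.7) without, which overlap, and in 21.5% (17.6 to 25.9) of cells with *Neurod1* and 31.1% (26.7 to 35.8) without.

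Likeness between genes was described by Pearson's r of log2(CPM + 10) over 11 control retinal clusters, which share 1 library, among 10836 genes. The genes most like *Atoh7* were *Hes6* (r = 0.969), *Gadd45a* (0.959) and *Hnrnph3* (0.957), and those most like *Bhlhe22* were *Hnrnph3* (0.986), *Gadd45a* (0.962) and *Mfng* (0.949). *Neurod4* was most like *Prdm1* (0.973), a photoreceptor regulator, *Fabp7* (0.973) and *Wdr41* (0.967). *Neurog2* was most like *Psip1* (0.943), *Nono* (0.918) and *Penk* (0.916), and *Olig2* like *Tbp* (0.9498), *Penk* (0.938) and *Dll4* (0.928). *Neurod1* was most like *3110035E14Rik* (0.970), *Jam2* (0.957) and *Lig4* (0.948). Among the members, *Atoh7* and *Bhlhe22* were most alike (0.948) and *Neurod4* and *Neurog2* least (0.232).

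The bHLH partners and opponents differed from the members in neurogenic-like cells. Of the 3 E protein genes, *Tcf3*, *Tcf4* and *Tcf12*, 0 passed 1.5-fold either way, and their median log2 ratio was -0.07. Of the 4 ID genes 3 were lower in DKO, *Id1* (309 and 160 CPM, log2 ratio -0.95), *Id2* (98.8 and 52.7 CPM, -0.91) and *Id3* (144 and 83.2 CPM, -0.79). Of the 5 HES and HEY genes 3 were lower, *Hes5* (501 and 258 CPM, -0.96), *Hey1* (39.7 and 21.4 CPM, -0.89) and *Hes1* (27.3 and 14.8 CPM, -0.88). *Hes6*, a HES gene that counters *Hes1*, had a log2 ratio of -0.06. Against the 3.57% of all genes that were lower in this class, these are shares of small lists and carry no test.

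Some other neural bHLH genes were higher too. Among those with at least 100 UMIs in neurogenic-like cells, the largest ratios were those of *Neurog1* (1.72 and 11.02 CPM, log2 ratio 2.68), *Nhlh1* (9.10 and 46.2 CPM, 2.34) and *Nhlh2* (21.7 and 77.0 CPM, 1.82), each higher in DKO. Requiring 100 UMIs over both libraries favours genes that are high in either, and most of the listed genes had fewer, so these do not stand for the list.

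Beside the 5.56% of all genes higher and 3.57% lower in this class, of 7 measured Notch ligand and fringe genes 0 were higher and 1, *Lfng*, was lower (15.4 and 9.62 CPM, log2 ratio -0.68). Ganglion cell genes known to lie downstream of *Atoh7* were split, with 5 of 10 higher and 1 lower. *Isl1* was lower at 266 and 152 CPM (log2 ratio -0.81), while *Sncg* (4.55 and 12.5 CPM, 1.46), *Gap43* (74.7 and 162 CPM, 1.12) and *Elavl4* (135 and 280.2 CPM, 1.05), a synuclein, a growth cone protein and a neuronal RNA-binding protein, were higher. Of 11 cell cycle exit and commitment genes 4 were higher, led by *St18* (7.18 and 35.6 CPM, 2.31), *Cdkn1c* (132 and 280.5 CPM, 1.09) and *Gadd45g* (93.3 and 158 CPM, 0.76), and *Gadd45a* was lower (919 and 581 CPM, -0.66).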

How the data were processed

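Eyecups at E13.5 were measured as 1 control and 1 DKO library with the 10x Genomics 3′ kit (version 3). The authors deposited raw UMI counts, whole numbers without normalization, of each gene in each called cell. The submitters' processing notes name Cell Ranger 3.1.0 and mm10. The tables hold 10315 control and 12672 DKO cells with 85589515 and 85173276 UMIs.

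After the study's own limits, a cell was kept if it had over 200 genes, fewer than 6000, and less than 20% of its UMIs from mitochondrial genes. Libraries were integrated with Seurat 5.3.0 in R 4.3.3 (20 dimensions, 2000 variable genes), and clusters were drawn at resolution 0.5. The members, all listed genes, *Six3*, *Six6* and hemoglobin, X-inactivation and Y-linked genes (810 symbols) were left out of the features. A cluster was named where its markers were on average 0.9 higher on log2(CPM + 10) than in other cells, led the next list by 0.4, at least 3 passed 1.5-fold and no other list had more genes among the 10 leading ones, thresholds set after the clusters were seen. Clusters with 50% or more doublet calls stayed unnamed. Scrublet in scanpy 1.11.5 called 300 control and 329 DKO doublets at a threshold of 0.225, the lower of the 2 automatic ones, and they were kept. Names are rebuilt and need not match those of the study.

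Levels are UMIs summed over the cells of a class per 1000000 UMIs (CPM). Intervals are exact (Poisson for levels, binomial for shares and for the split of UMIs behind a ratio), at 95%, and cover counting error only, since UMIs of 1 library and cells of 1 embryo are not replicates. With 1 library per genotype no p-value was computed. For shares of cells and for phases (43 S and 54 G2M genes) cells were thinned to 2000 UMIs, which left 8557 control and 10580 DKO cells. The calculation of ratios was tested on simulated data with known folds. Calculations used pandas 2.3.3, scipy 1.17.1 and numpy 2.4.6 in Python 3.11.15, and figures matplotlib 3.10.9.

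Genes named are the 6 members, the 3 genes most like each in control clusters of at least 50 cells (genes with at least 200 UMIs), up to 3 genes per list and direction past 1.5-fold in neurogenic-like cells, and *Six3* and *Six6*. Among the listed genes, 1 is not reported here. Genes set beside members within cells and single markers were named after values had been seen. The members and lists were chosen with earlier results of these data known. Alternatives were no gene left out of clustering, resolutions 0.3 and 1, libraries merged, removal of doublets, a minimum of 1000 genes per cell, other totals, the log2 of the mean per 10000 plus 1, *Six3*-low cells, other thinning and 20 UMIs as the limit. Another OpenBLAS kernel, single clusters, cells without Eomes Tbr1 neuron markers and naming of doublet-rich clusters were added after seeing the data.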

Additional observations from a re-analysis of the deposited data

Results flagged for a closer look

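*Neurod4* had ratios of opposite sign between classes, with intervals that did not include 0 on either side. Its log2 ratio of DKO over control was 1.20 in naïve-like and 1.15 in neurogenic-like cells, and -1.45 in ganglion-like and -1.93 in amacrine- or horizontal-like cells. The ganglion-like value rested on 28 control and 18 DKO UMIs and the amacrine- or horizontal-like value on 22 and 7, below the limit of 100 UMIs used for calls. The naïve-like levels were 0.768 and 1.76 CPM, against 0.334 and 1.11 CPM in red blood-like cells. The difference between the classes was not tested.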

How the results depend on the processing

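With 1 library and 1 embryo per genotype, differences between animals, dissections or library preparations cannot be told apart from the genotype. No paired analysis was possible because control and DKO were sequenced as 1 library each, and no replicate could be left out. *Six3*-low DKO cells gave no value in neurogenic-like, photoreceptor-like and amacrine- or horizontal-like cells, where 19, 1 and 0 such cells were found. The 50% limit for such cells was set against control cells that themselves lacked 1 *Six3* copy. DKO cells were shallower, and classes of about 100 cells leave *Olig2*, *Neurog2* and *Bhlhe22* with few UMIs there.

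Of 676 values recomputed under another setting, 431 stayed within their limit, 240 moved further and 5 that were past 1.5-fold changed sign. The limit was the interval of the main value. For counts of members and shares of all genes, which had no interval, it was a 1.5-fold change. Sign changes of values within 1.5-fold are counted among those that moved or did not, such as *Atoh7* in naïve-like cells at 0.30 with merged libraries. In ganglion-like cells the *Bhlhe22* log2 ratio was 0.00 (-0.00413955 before rounding) with no gene left out of clustering, -0.12 at resolution 1, -0.35 with merged libraries and -0.72 in cells without Eomes Tbr1 neuron markers, and the *Atoh7* ratio was 1.27 in the 69 DKO cells of *Six3*-low subclusters. Those 69 cells themselves held *Six3* at 406 CPM, against 739 CPM in control ganglion-like cells, which is over 50% of it. The cause was not tested.

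In neurogenic-like cells the *Atoh7* log2 ratio was -0.61 with no gene left out, -0.71 at resolution 0.3, -0.46 at resolution 1, -0.083 with merged libraries, -0.64 with the other kernel, -0.54 in cluster 3, -0.30 in cluster 8 and -0.27 without cells holding Eomes Tbr1 neuron markers. The *Neurog2* log2 ratio was 1.46 with no gene left out, 1.47 at resolution 0.3, 1.37 with merged libraries, 1.45 with the other kernel, 0.82 on the log2 scale of the mean plus 1, 1.95 in cluster 3 and 1.16 in cluster 8. The *Neurod1* log2 ratio was 0.78 at resolution 0.3, 0.44 with merged libraries, 0.60 on the scale of the mean plus 1, 1.03 in cluster 3, 0.34 in cluster 8 and 0.59 without cells holding Eomes Tbr1 neuron markers. The 4 members past 1.5-fold became 2 with merged libraries, on the scale of the mean plus 1 and in cluster 8, and 5 in cluster 3, where *Olig2* had a log2 ratio of 0.77 from fewer than 100 UMIs. *Atoh7* became 1 member past 1.5-fold lower with no gene left out, at resolution 0.3 and with the other kernel. The share of all genes past 1.5-fold was not computed under these settings, so these counts have no background.

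The share of neurogenic-like cells with *Atoh7* that had *Neurod1* was 58.5% in control and 74.2% in DKO without thinning, 49.2% and 72.4% at 4000 UMIs, and 50% in DKO with merged libraries. In Eomes Tbr1 neuron-like cells *Atoh7* was at 336 CPM with no gene left out, 83.2 CPM at resolution 0.3, 165 CPM at resolution 1, 622 CPM with merged libraries, 93.7 CPM without doublets and 151 CPM with the other kernel. *Neurog2* was there at 174 CPM, 204 CPM, 230 CPM and 212 CPM with no gene left out, at resolution 0.3, with merged libraries and with the other kernel. *Atoh7* was thus above *Neurog2* with no gene left out and with merged libraries. At a limit of 20 UMIs instead of 100 the shares of all genes past 1.5-fold rose in each class and direction, as in neurogenic-like cells to 9.12% higher and 6.21% lower from 5.56% and 3.57%.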
